A study of Mus musculus with 4 samples.

Results

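BAFF and APRIL are 2 ligands of the TNF family that keep mature B cells alive and support antibody-secreting cells, and they are read by 3 receptors. The 5 genes of this system, Tnfrsf13c (BAFF receptor, BAFF-R), Tnfrsf13b (TACI), Tnfrsf17 (BCMA), Tnfsf13b (BAFF) and Tnfsf13 (APRIL), were taken by symbol from a table of 55401 genes, and all 5 were found. They were measured in follicular B (FOB) cells, the recirculating mature B cells of the spleen, of mice that lack the RNA-binding protein hnRNP F in B cells. In Hnrnpf bKO FOB cells the mRNAs of both receptors that these cells express in quantity were lower than in WT cells, Tnfrsf13c at 77.3% of the WT level and Tnfrsf13b at 82.3% (n = 2 per genotype), and the second of these calls did not hold without either of 2 libraries. The mRNAs of BCMA, BAFF and APRIL were at or near 0 in both genotypes.

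The libraries came from 2 WT and 2 Hnrnpf bKO samples of mice on the C57BL/6 background, 7 weeks old by the labels. Both genotypes carried floxed Hnrnpf alleles (Hnrnpf fl/fl). Only bKO mice also carried a knocked-in Cre recombinase that is made in B lineage cells and removes exon 4 of Hnrnpf. Since WT mice had no Cre allele, the loss of Hnrnpf and the presence of that allele cannot be told apart in any comparison here. The cells were sorted as B220+ CD93- CD23high CD21low, and poly(A) RNA was sequenced in paired-end reads. The sources used here do not say whether a library came from 1 mouse or from pooled mice, so p-values measure only the spread between these samples. With 2 libraries against 2, a two-sided exact permutation test cannot go below p = 0.333, and the tests below are therefore from a model fitted over all genes, the quasi-likelihood test of edgeR with Benjamini-Hochberg (BH) adjustment.

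The counts summed to between 15698567 and 18908963 per library. Hnrnpf had 5780 and 6634 counts in WT against 1167 and 1194 in bKO, a log2 fold change of -2.32 (SE 0.061, edgeR BH-adjusted p = 4.29e-12), so each library went with its label. Of 14123 genes tested, 1038 (7.35%) passed an adjusted p of 0.05, 606 of them higher and 432 (3.06%) lower in Hnrnpf bKO, and 128 (0.906%) also changed by at least 2-fold. The markers of follicular B cells were high in every library and those of myeloid and T cells low. Levels were summed in CPM (counts per 1000000 counts of the library). Summed over 10 myeloid genes the level was 16.9 and 24.5 CPM in WT against 26.4 and 36.0 in bKO. S100a8 and S100a9 were higher past the test. Among the other tested myeloid genes, Lyz2 and Itgam had values above 0 (log2 fold change 0.56 and 0.72). Adgre1, Itgax and Csf1r had values below 0 (-0.87, -0.57 and -0.21). None of these others passed the edgeR adjusted p, and of them only Adgre1 had an unadjusted edgeR p under 0.05. Summed over 6 T cell genes the level was 25.7 and 37.2 CPM in WT against 22.0 and 30.9 in bKO. Of these 6 genes, 0 passed the adjusted p in edgeR, DESeq2 or limma, and 0 had an unadjusted edgeR p under 0.05. Summed over the 10 follicular B cell genes the level was 19209 to 19900 CPM.

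As background, BAFF binds all 3 receptors and APRIL binds TACI and BCMA. BAFF-R is the receptor through which BAFF sustains mature naive B cells. Its engagement draws TRAF3 away from the kinase NIK, encoded by Map3k14, which allows NIK and IKK alpha to process the NF-kB precursor p100 to p52, the non-canonical NF-kB pathway. BAFF-R also feeds the PI3K pathway. TACI promotes class switching and T cell-independent responses and limits B cell numbers, and BCMA serves long-lived plasma cells. The ligands are made mainly by myeloid and stromal cells, released by furin-like cleavage, and APRIL is held on heparan sulfate proteoglycans.

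The coding sequences of both expressed receptors are shown because hnRNP F is known to bind runs of guanines and because the splicing table named neither gene. Coordinates are on GRCm38, sequences are those of the GENCODE M21 transcripts, and capitals mark every run of at least 3 G. Tnfrsf13c (ENSMUSG00000068105, chr15:82221743-82224369, minus strand) has 3 coding exons, of which exons 1 and 2 are shown, with 8 of its 9 runs.
Tnfrsf13c coding exon 1, chr15:82224060-82224312, minus strand: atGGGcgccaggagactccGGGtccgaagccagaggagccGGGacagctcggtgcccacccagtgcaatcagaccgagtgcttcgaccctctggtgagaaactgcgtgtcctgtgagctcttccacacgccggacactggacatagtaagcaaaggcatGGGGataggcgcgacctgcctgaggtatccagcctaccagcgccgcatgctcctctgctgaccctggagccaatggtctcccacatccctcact
Tnfrsf13c coding exon 2, chr15:82223719-82223922, minus strand: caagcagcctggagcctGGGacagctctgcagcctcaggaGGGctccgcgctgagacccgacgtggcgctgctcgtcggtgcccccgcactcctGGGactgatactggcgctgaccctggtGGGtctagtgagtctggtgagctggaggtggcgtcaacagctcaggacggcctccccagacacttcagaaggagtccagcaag
Over its 600 coding bases this came to 15 runs per kb. Of Tnfrsf13b (ENSMUSG00000010142, chr11:61126755-61149372, plus strand), coding exons 2 and 3 of 4 are shown, which hold 7 of its 12 runs.
Tnfrsf13b coding exon 2, chr11:61141261-61141491, plus strand: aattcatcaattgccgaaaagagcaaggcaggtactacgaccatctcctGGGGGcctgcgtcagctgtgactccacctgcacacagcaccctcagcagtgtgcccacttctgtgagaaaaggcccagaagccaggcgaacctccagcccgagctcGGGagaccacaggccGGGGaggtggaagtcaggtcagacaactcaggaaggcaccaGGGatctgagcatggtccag
Tnfrsf13b coding exon 3, chr11:61146841-61147017, plus strand: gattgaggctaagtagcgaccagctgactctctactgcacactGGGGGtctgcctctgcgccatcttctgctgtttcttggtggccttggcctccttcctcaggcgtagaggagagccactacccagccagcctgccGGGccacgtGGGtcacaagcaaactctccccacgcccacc
Over its 747 coding bases Tnfrsf13b had 16.1 runs per kb. The median over 11243 tested genes with a coding sequence was 11.7 per kb, and Tnfrsf13b lay above 78.9% and Tnfrsf13c above 73.4% of them. Tnfsf13 had the densest runs of the 5 genes, 17 in 720 coding bases or 23.6 per kb, Tnfrsf17 had 12.6 and Tnfsf13b 9.71 per kb. The position of both receptors in this order was therefore above the middle without being extreme. Density was not adjusted for GC content, which was 61.71% in Tnfrsf13b and 63.83% in Tnfrsf13c. In Tnfrsf17, Tnfsf13b and Tnfsf13 it was 53.33, 52.75 and 53.06%. Introns were not scanned, so the order covers coding bases only. These runs are letters in a sequence, not measured binding.

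Because both receptors were lower together, the 250 bases before their RefSeq starts are shown as well (GRCm38.p6), with capitals for any match on either strand to GAGGAA (a core of PU.1 sites) or CANNTG (the E-box).
Tnfrsf13c upstream window, chr15:82224381-82224630, minus strand: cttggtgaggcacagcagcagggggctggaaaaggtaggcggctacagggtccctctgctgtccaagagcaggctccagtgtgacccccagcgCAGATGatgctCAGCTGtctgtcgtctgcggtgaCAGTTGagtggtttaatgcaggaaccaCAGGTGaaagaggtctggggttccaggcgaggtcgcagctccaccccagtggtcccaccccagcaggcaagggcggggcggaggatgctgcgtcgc
Tnfrsf13b upstream window, chr11:61126505-61126754, plus strand: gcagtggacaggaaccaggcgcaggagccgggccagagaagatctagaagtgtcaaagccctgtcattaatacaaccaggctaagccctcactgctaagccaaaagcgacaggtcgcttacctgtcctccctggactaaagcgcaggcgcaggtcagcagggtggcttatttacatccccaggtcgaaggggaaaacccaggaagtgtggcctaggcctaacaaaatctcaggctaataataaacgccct
The Tnfrsf13c window held 4 E-boxes and the Tnfrsf13b window 0, and neither held GAGGAA. Of 27025 promoter windows of the same length, 66.0% held an E-box and 23.1% held GAGGAA. The windows of both receptors thus shared neither of these motifs.

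Tnfrsf13c, the BAFF receptor, was the most abundant of the 5 genes. Its counts were 6192 and 7386 in WT against 4740 and 5200 in bKO. Per length and depth, as FPKM (fragments per kb of exon, scaled to the library total), this was 184.8 and 190.73 in WT against 147.43 and 140.48 in bKO. Both bKO libraries lay below both WT libraries, as was the case in CPM for 26.9% of all genes tested. The mean level was 188 ± 4.19 FPKM in WT and 144 ± 4.91 in Hnrnpf bKO (SD, n = 2 each). This gave a log2 fold change of -0.37 (SE 0.050, edgeR BH-adjusted p = 0.000382), which is 77.3% of WT with a 95% interval of 71.7 to 83.2%. In bulk RNA a lower level in each cell and a smaller share of cells with the mRNA cannot be told apart. The direction was the same under all 11 alternative settings, between -0.40 and -0.34. The call held in 9 of them and not in limma on log2(FPKM + 0.1) or log2(FPKM + 1), where the limma adjusted p was 0.0632 and 0.0626.

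Tnfrsf13b, the TACI receptor, had 5058 and 6514 counts in WT against 4398 and 4586 in bKO. Its FPKM was 109.01 and 121.47 in WT against 98.78 and 89.47 in bKO. The groups did not overlap, with bKO lower, as was the case in CPM for 26.9% of all genes tested. The gap between the nearest libraries, WT replicate 1 and bKO replicate 1, was smaller than the distance between the WT libraries. The mean was 115 ± 8.81 FPKM in WT and 94.1 ± 6.58 in Hnrnpf bKO (SD, n = 2 each). This gave a log2 fold change of -0.28 (SE 0.061, edgeR BH-adjusted p = 0.0114), or 82.3% of WT with a 95% interval of 75.1 to 90.1%. This call rested on single libraries. Without WT replicate 2 the log2 fold change was -0.20 (edgeR BH-adjusted p = 0.0904), and without Hnrnpf bKO replicate 2 it was -0.22 (edgeR BH-adjusted p = 0.0778). It was also lost in both limma settings, with limma adjusted p of 0.171 and 0.173.

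**Figure D1:**
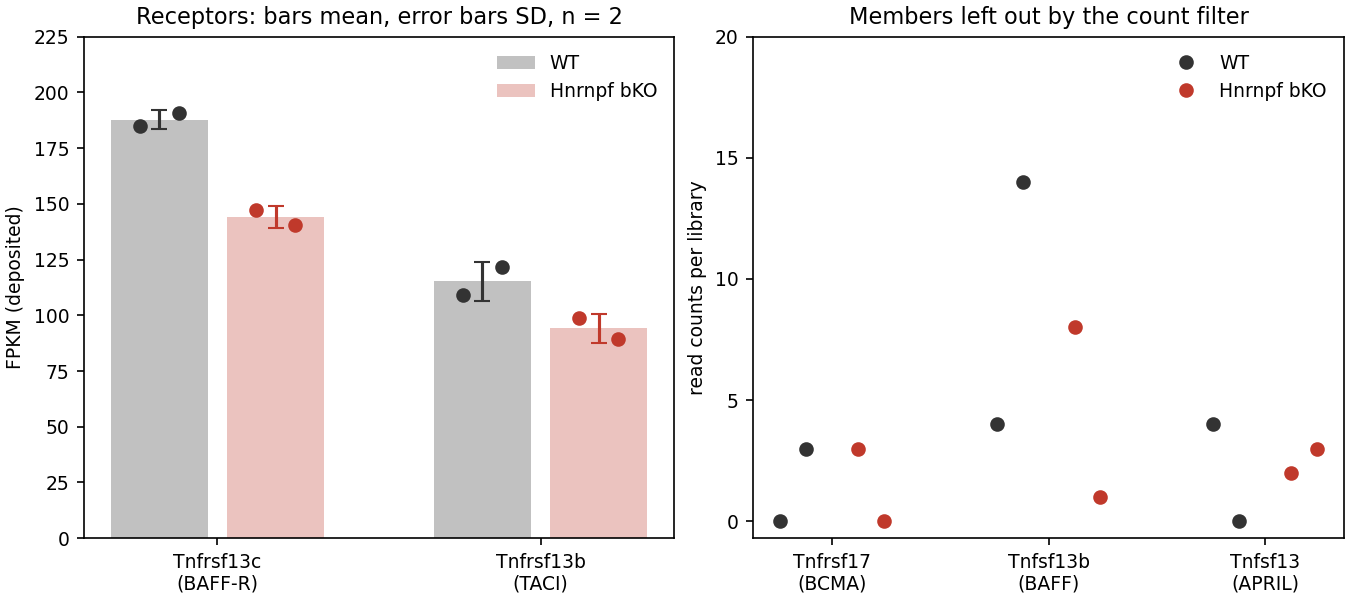
Levels of the 5 genes in each library. The left panel gives the deposited FPKM of Tnfrsf13c and Tnfrsf13b (points: libraries, bars: mean, error bars: SD, n = 2), with both Hnrnpf bKO libraries below both WT libraries for each receptor, and the right panel gives the read counts of Tnfrsf17, Tnfsf13b and Tnfsf13, none above 14 in any library.

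The 2 receptors kept their order. BAFF-R mRNA was above TACI mRNA per length in every library, with an FPKM ratio of 1.70 and 1.57 in WT against 1.49 and 1.57 in bKO. The nearest ratios of the genotypes, 1.57018 in WT replicate 2 and 1.57014 in bKO replicate 2, nearly met. By mean FPKM in WT, Tnfrsf13c ranked 171 and Tnfrsf13b 337 among the 14123 genes tested, and each receptor's level stood apart from the other's in both genotypes. Among the 3970 genes that averaged 1000 counts or more, 239 (6.02%) were lower in Hnrnpf bKO past the adjusted p. The log2 fold change was as low as that of Tnfrsf13c or lower in 45 of these (1.13%) and as low as that of Tnfrsf13b or lower in 110 (2.77%). Neither receptor changed by 2-fold, the size the study asks for.

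**Figure D2:**
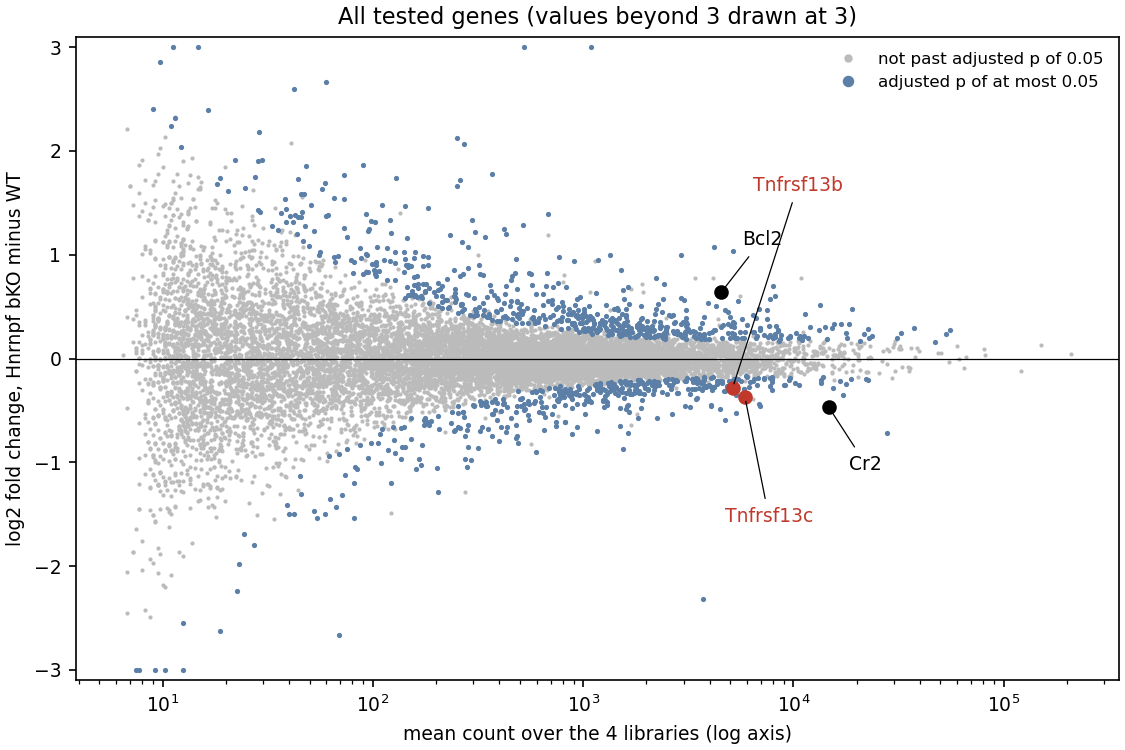
Log2 fold change (Hnrnpf bKO minus WT) of each of the 14123 genes tested against its mean count over the 4 libraries, on a log axis. Both receptors (red) sit below 0 among abundant genes, at -0.37 and -0.28, with Cr2 at -0.47 further down and Bcl2 at 0.64 above.

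**Figure D3:**
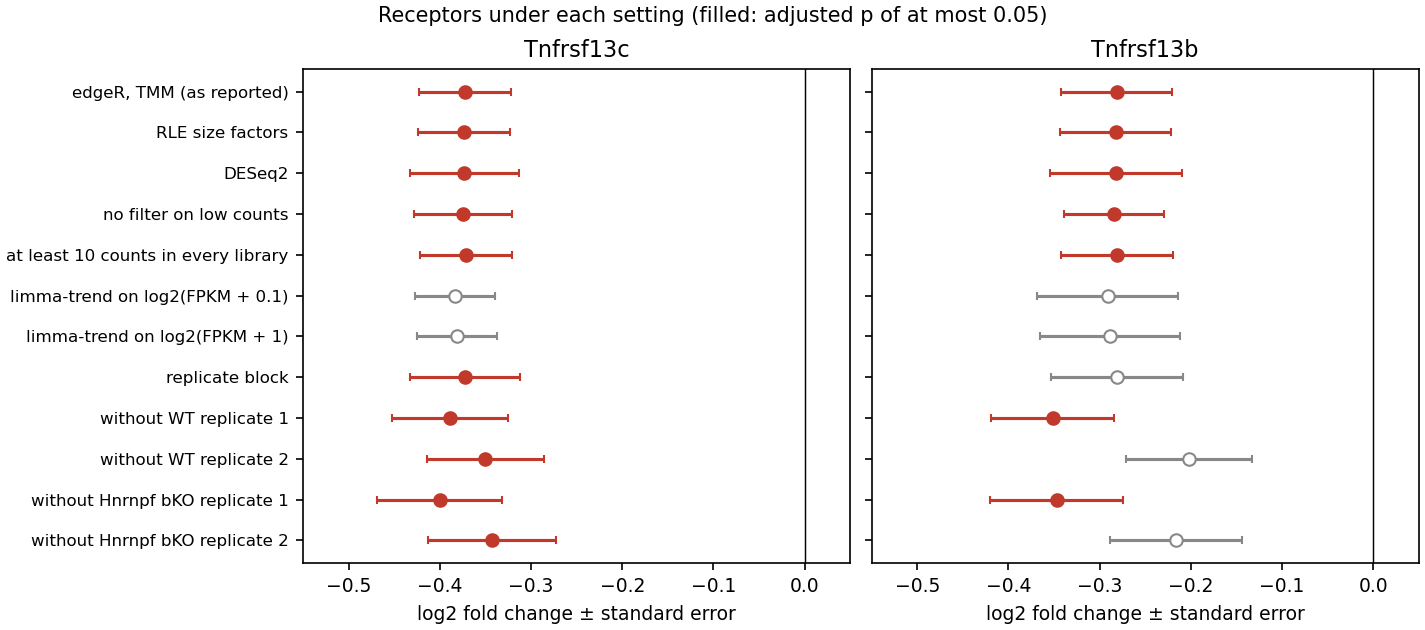
Log2 fold change of Tnfrsf13c and Tnfrsf13b (point) with its standard error (bar) under the reported fit and 11 alternatives. Values stayed between -0.40 and -0.34 for Tnfrsf13c and between -0.35 and -0.20 for Tnfrsf13b, and open points miss an adjusted p of 0.05.

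The third receptor and both ligands were barely detected, and none of the 3 passed the filter on low counts, so that 2 of the 5 genes were tested. Tnfrsf17, the BCMA receptor of plasma cells (ENSMUSG00000022496, chr16:11313812-11320074, plus strand), had 0 and 3 counts in WT against 3 and 0 in bKO. Pooled over a genotype, the upper limit of its exact 95% Poisson interval was 0.305 FPKM in WT and 0.319 in Hnrnpf bKO. The groups overlapped, and any level of Tnfrsf17 mRNA was far under that of either other receptor. Intervals of this kind cover counting error only.

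Tnfsf13b, which encodes BAFF (ENSMUSG00000031497, chr8:10006467-10039072, plus strand), had 4 and 14 counts in WT against 8 and 1 in bKO. The libraries of both genotypes overlapped, and the highest and lowest counts were both from replicates numbered 2. The Poisson upper limit was 0.117 FPKM in WT and 0.0737 in Hnrnpf bKO. In a fit without the count filter its log2 fold change was -0.87 (SE 0.84, edgeR BH-adjusted p = 0.753), an error too wide to tell a rise from a fall. The myeloid genes that share the usual source of BAFF were present at the low CPM given above.

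Tnfsf13, which encodes APRIL (ENSMUSG00000089669, chr11:69682846-69685784, minus strand), had 4 and 0 counts in WT against 2 and 3 in bKO. Its upper limit was 0.177 FPKM in WT and 0.211 in Hnrnpf bKO, and the groups overlapped. Of its 1637 exonic bases, 983 (60.05%) are also exonic in Tnfsfm13, the read-through gene that joins Tnfsf12 to Tnfsf13. Of the same 1637, 221 lie opposite the antisense gene Tnfsf13os. How the counting treated reads in shared bases is not given in the sources used here. Tnfsfm13 had 0 counts in all 4 libraries. Tnfsf12 (TWEAK), the upstream neighbor, had 2 and 2 counts in WT against 5 and 3 in bKO. Counts at Tnfsf13, Tnfsfm13 and Tnfsf12 thus did not pass 5 in any library. The other 4 genes of the system share no exonic bases with another gene.

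None of the 5 genes had an event in the deposited table of altered splicing, which lists 1556 events in 1173 genes. Of genes averaging 1000 counts or more, 12.9% were listed, and Tnfrsf13c and Tnfrsf13b are the genes of the system that reach that count.

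The other genes of the pathway were taken from 5 lists of 54 genes, of which 52 were tested. Of these, 7 were higher and 6 lower in Hnrnpf bKO past the adjusted p, 13 in all or 25%, beside 7.35% of all genes tested. None changed by 2-fold, and the median log2 fold change of the 52 was -0.011. These lists hold many abundant genes, for which lower calls were more frequent. At a mean of 1000 counts or more, 6.02% of genes were lower past the adjusted p, against 3.06% of all genes tested. The share in either direction was not computed at that count, so the 25% was not set against genes of like abundance.

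**Figure D4:**
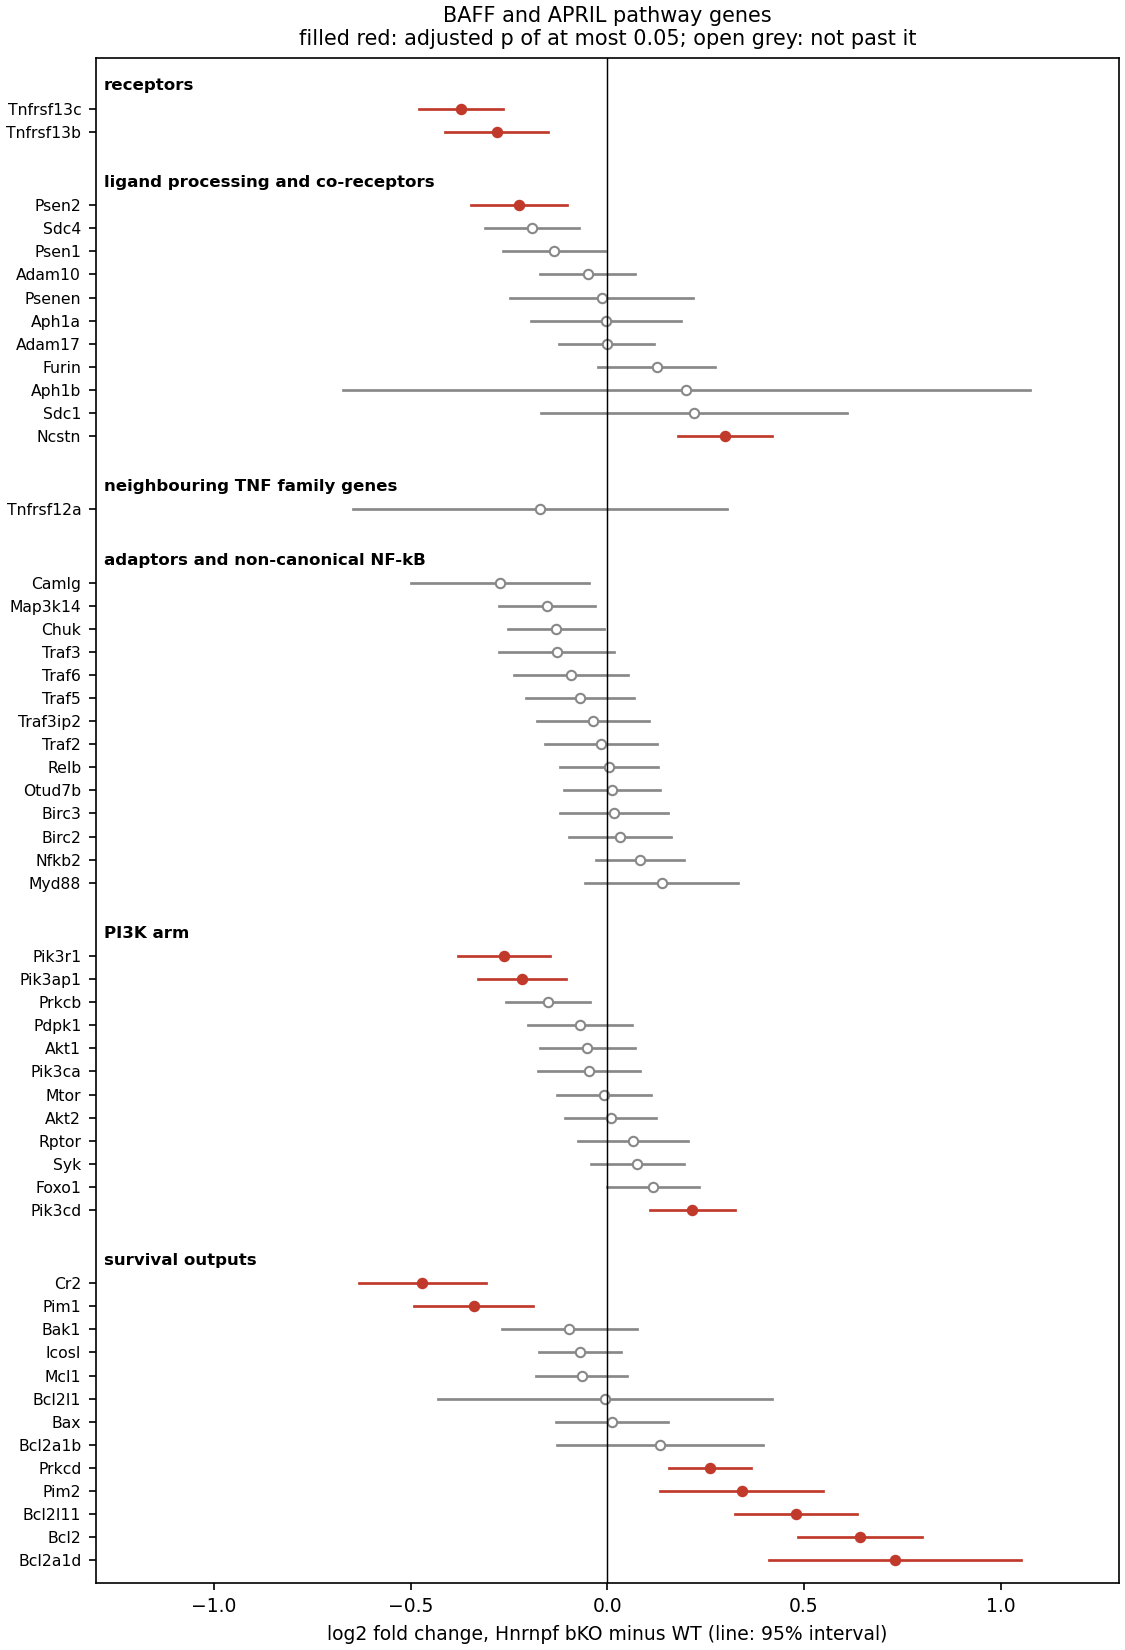
Log2 fold change (Hnrnpf bKO minus WT, point) with its 95% interval (line) of both receptors and of 51 of the 52 tested pathway genes, by list. Both receptors fell, the adaptors and NF-kB genes show 0 filled points of 14, and the survival genes hold filled points on either side, from -0.47 for Cr2 to 0.73 for Bcl2a1d.

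Among the 11 genes that process the ligands and receptors or serve as co-receptors, 1 was higher and 1 lower. This was 18.2% beside 7.35% of all genes tested. Ncstn, a subunit of gamma-secretase, the protease that clears BCMA from the cell surface, had 2068 and 2519 counts in WT against 2552 and 2794 in bKO (log2 fold change 0.30, SE 0.056, edgeR BH-adjusted p = 0.00421). Psen2, a catalytic subunit of the same protease, had 1923 and 2270 counts in WT against 1566 and 1843 in bKO (log2 fold change -0.22, SE 0.057, edgeR BH-adjusted p = 0.0256). The subunits of this protease thus moved in both directions. The Psen2 call was lost without WT replicate 1 (-0.23, edgeR BH-adjusted p = 0.0658), without WT replicate 2 (-0.21, 0.107) and without bKO replicate 1 (-0.20, 0.131), and with DESeq2 (-0.23, DESeq2 adjusted p = 0.104). Adam10 and Adam17, sheddases of BAFF-R and TACI, and Furin, which cleaves the ligands, did not pass the test.

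Between the receptors and NF-kB, 0 of 14 genes passed the adjusted p in edgeR, beside 7.35% of all genes tested. In DESeq2 and limma it was also 0. At an unadjusted edgeR p under 0.05 there were 3, Map3k14 (NIK), Chuk (IKK alpha) and Camlg, an interactor of TACI. Their log2 fold changes were -0.15, -0.13 and -0.27 (edgeR BH-adjusted p of 0.135, 0.209 and 0.151). The Camlg value was near that of Tnfrsf13b, on a mean of 391 counts. The 2 most abundant of the 14 were Nfkb2, which encodes p100, and Birc3, which encodes cIAP2, a ubiquitin ligase in the complex with TRAF3. Nfkb2 had 5823 and 6319 counts in WT against 5672 and 6578 in bKO (log2 fold change 0.083, SE 0.052, edgeR BH-adjusted p = 0.405). Birc3 had 5341 and 6028 counts in WT against 5475 and 5406 in bKO (log2 fold change 0.016, SE 0.064, edgeR BH-adjusted p = 0.923). At this depth a change of the size of the receptors' would lie outside the intervals of both genes. Traf3, which encodes the adaptor that holds NIK in check, had 4028 and 4533 counts in WT against 3192 and 4287 in bKO (log2 fold change -0.13, SE 0.068, edgeR BH-adjusted p = 0.317), and without Hnrnpf bKO replicate 2 it passed the test (-0.25, edgeR BH-adjusted p = 0.0259). The splicing table named 3 genes of this list, Traf3 with 2 skipped-exon events, Chuk with 1 skipped-exon and 1 alternative donor-site event, and Traf2 with 1 alternative donor-site event. Tnfrsf12a, the receptor for TWEAK, had 78 and 116 counts in WT against 71 and 92 in bKO, which overlap.

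In the PI3K arm, 1 of 13 genes was higher and 3 were lower, 30.8% in all beside 7.35% of all genes tested. Of the lower genes, 2 are described here. Pik3r1, the p85 alpha regulatory subunit of PI3K, had 2231 and 2614 counts in WT against 1779 and 2055 in bKO (log2 fold change -0.26, SE 0.055, edgeR BH-adjusted p = 0.00836). Pik3ap1, the adaptor BCAP, had 5605 and 6746 counts in WT against 4858 and 5197 in bKO (log2 fold change -0.22, SE 0.053, edgeR BH-adjusted p = 0.0201). Pik3cd, the catalytic p110 delta subunit of lymphocytes, went the other way, at 9740 and 11502 counts in WT against 10527 and 12951 in bKO (log2 fold change 0.22, SE 0.051, edgeR BH-adjusted p = 0.0172). A regulatory subunit was thus lower and a catalytic subunit higher. The Pik3ap1 call was lost without WT replicate 2 (-0.19, edgeR BH-adjusted p = 0.101) and without Hnrnpf bKO replicate 2 (-0.17, 0.177), and the Pik3cd call without Hnrnpf bKO replicate 2 (0.16, 0.191).

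Of the 13 genes for survival and other outputs of the pathway, 5 were higher and 2 lower, 53.8% beside 7.35% of all genes tested. The share among genes of like abundance was not computed for this or any other list. Bcl2, the anti-apoptotic protein of resting B cells, had 3391 and 3915 counts in WT against 4600 and 6282 in bKO (log2 fold change 0.64, SE 0.072, edgeR BH-adjusted p = 0.000236), or 156% of WT. Bcl2a1d, an A1 family anti-apoptotic gene, had 159 and 155 counts in WT against 219 and 279 in bKO (log2 fold change 0.73, SE 0.15, edgeR BH-adjusted p = 0.00768). It is 98.8% identical to Bcl2a1b over 516 bases, so the split of reads among the A1 genes is uncertain, and Bcl2a1b itself had a log2 fold change of 0.13 (edgeR BH-adjusted p = 0.601). Pim2, a survival kinase that BAFF induces, had 672 and 979 counts in WT against 897 and 1080 in bKO (log2 fold change 0.34, SE 0.096, edgeR BH-adjusted p = 0.0476). The Pim2 value lay near the threshold, was between 0.19 without WT replicate 1 and 0.52 without WT replicate 2, and its call was lost without WT replicate 1 (edgeR BH-adjusted p = 0.271), without Hnrnpf bKO replicate 1 (0.0669) and without Hnrnpf bKO replicate 2 (0.149). It was also lost with DESeq2 (0.34, DESeq2 adjusted p = 0.111). Pim2 also has near-identical copies, Gm21182 and Gm7645.

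Higher levels were not limited to genes that protect the cell. Bcl2l11, the pro-apoptotic protein BIM, had 1195 and 1228 counts in WT against 1556 and 1655 in bKO (log2 fold change 0.48, SE 0.073, edgeR BH-adjusted p = 0.000963). Prkcd, a kinase that promotes B cell death when BAFF is absent, had 7329 and 8436 counts in WT against 8175 and 9797 in bKO (log2 fold change 0.26, SE 0.049, edgeR BH-adjusted p = 0.00449), and it was listed with 1 retained-intron event. Both bKO libraries lay above both WT libraries in CPM for BIM and for Prkcd. The share of all genes tested with this order was not computed, and 26.9% of them had the reverse order. The lower genes were Pim1 and Cr2. Pim1, a kinase related to Pim2, had 1075 and 1238 counts in WT against 798 and 939 in bKO (log2 fold change -0.34, SE 0.071, edgeR BH-adjusted p = 0.00872). Cr2, the complement receptor CD21 that BAFF-R signaling raises, had 17733 and 17145 counts in WT against 11268 and 12796 in bKO (log2 fold change -0.47, SE 0.073, edgeR BH-adjusted p = 0.00309). CD21 was also part of the sort gate. Mcl1, the anti-apoptotic gene that BAFF-R and BCMA signaling maintains, had 12002 and 13836 counts in WT against 10379 and 13152 in bKO. Both bKO libraries were lower in CPM, an order that 26.9% of all genes tested had. The nearest values, 727.65 CPM in bKO replicate 2 and 731.716 in WT replicate 2, nearly met. Mcl1 did not pass the test (log2 fold change -0.065, SE 0.054, edgeR BH-adjusted p = 0.555).

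Markers of B cell stage moved beside the receptors. Of the 10 follicular B cell genes, which are abundant, 6 (60%) passed the adjusted p, beside 7.35% of all genes tested. Fcer2a (CD23) and Ighd rose and 4 fell, among them Ms4a1 (CD20), Cr2 and Pax5. Ms4a1 had a log2 fold change of -0.29 (SE 0.047, edgeR BH-adjusted p = 0.00165). CD23, like CD21, was part of the sort gate, and Fcer2a was listed with 5 splicing events. The transitional B cell gene Cd93, whose protein was gated out, had 138 and 222 counts in WT against 261 and 354 in bKO (log2 fold change 0.85, SE 0.16, edgeR BH-adjusted p = 0.00444). Vpreb3, the other tested gene of that list, did not pass the test, at 1049 and 1306 counts in WT against 995 and 1080 in bKO (log2 fold change -0.10, SE 0.072, edgeR BH-adjusted p = 0.464). For Vpreb3 both bKO libraries were below both WT libraries in CPM, as for 26.9% of all genes tested. The last 3 genes of the list were at or near 0, with Rag2 at 0 in every library, Rag1 at 0 in all but 1 and Dntt at 5 counts or fewer. Of 5 marginal zone genes, 1 was higher (Cd1d1) and 2 lower (Dtx1 and S1pr3), 60% beside 7.35% of all genes tested. Of 5 plasma cell genes, 0 passed the adjusted p in edgeR, DESeq2 or limma, and 0 had an unadjusted edgeR p under 0.05. The part of stage differences in the levels of BAFF-R and TACI mRNA was not tested.

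The genes with the pattern most like that of a receptor were found by the Euclidean distance of log2 CPM, centered over the 4 libraries, among 9874 genes that averaged 100 counts or more. Nearest to Tnfrsf13c were Flna, at a distance of 0.0171 and a log2 fold change of -0.36, Vamp1 at 0.0347 and 5830408C22Rik at 0.0348. Nearest to Tnfrsf13b were Hdac1-ps at 0.0142, Actr6 at 0.0240 and Apmap at 0.0262. Within a distance of 0.1 lay 68 genes for Tnfrsf13c and 101 for Tnfrsf13b, so these patterns over 4 libraries were shared by many genes.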

How the data were processed

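RNA of 2 WT and 2 Hnrnpf bKO samples of sorted FOB cells was used. The authors trimmed reads with cutadapt 1.9.1, aligned them with HISAT2 2.0.1 to GRCm38 and made the deposited counts per gene with HTSeq 0.6.1, without normalization. The deposited FPKM are the authors' rescaling of the counts by exonic size and library total. The library kit does not mark strand, and the strand setting, overlap mode and annotation release are not given in the sources used here. Deposited exonic sizes equalled those of GENCODE M21 for 99.03% of 55141 matched genes. The authors' splicing table gave event types per gene, and its FDR and inclusion differences, which are the authors' own comparison, were not used.

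Counts were compared with edgeR 4.0.16 in R 4.3.3 (TMM, filterByExpr, robust quasi-likelihood F test, Benjamini-Hochberg over 14123 genes), at the study's thresholds of an adjusted p of 0.05 and a 2-fold change. The study used DESeq2, run here (1.42.0) as an alternative beside limma 3.58.1, RLE size factors, other filters, a replicate block and each library left out. The genes named were all 5 members and Hnrnpf, every pathway gene past the adjusted p or otherwise the 2 most abundant of a list, Tnfsf12 and Tnfsfm13, and the 3 genes nearest to each expressed receptor. One gene of the PI3K list that this rule names is not reported here. Traf3, Traf2, Map3k14, Chuk, Camlg, Adam10, Adam17, Furin, Bcl2a1b, Mcl1 and the marker genes were named after their values were seen. The members and lists were chosen with earlier results of these data known. Sequence copies were looked for with blastn 2.17.0 (90% identity or more over 150 bases).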

Additional observations from a re-analysis of the deposited data

How the results depend on the processing

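The direction of both receptors was the same under all 11 alternatives. The Tnfrsf13c call was lost with limma on log2(FPKM + 0.1) (log2 fold change -0.38) and on log2(FPKM + 1) (-0.38), and the Tnfrsf13b call in the same settings (-0.29 and -0.29). With each library left out in turn, Tnfrsf13c ran from -0.40 to -0.34 and Tnfrsf13b from -0.35 to -0.20, in fits that take the lone library to vary like the other group. Genes past the adjusted p, 1038 in the edgeR fit above, numbered 621 with DESeq2 and 44 and 40 with limma at the low and the high pseudocount. Those also changed by 2-fold, 128 in the edgeR fit above, numbered 73 with DESeq2, 22 and 19 with limma, and 312 at a fold of 1.5. Pathway genes past the adjusted p, 13 in the edgeR fit above, numbered 11 with DESeq2, where Psen2 and Pim2 lost their calls. With limma they numbered 1 and 1. Every pathway gene described above with a call lost that call in both limma settings. Among them was Bcl2, with limma adjusted p of 0.0769 and 0.0809. Birc3, which passed no test, changed sign without WT replicate 2 and without Hnrnpf bKO replicate 1, and ran from -0.091 to 0.12 with each library left out. Tnfrsf12a, which passed none either, changed sign without WT replicate 2 and ran from -0.33 to 0.025. The cause of these changes was not tested. RLE size factors and both count filters kept the calls of both receptors, and edgeR's RPKM with TMM library sizes moved the level of neither receptor by more than the spread of its replicates (it was not computed for the other 3 genes). At 14 counts or fewer per library, depth limits what can be said of Tnfrsf17, Tnfsf13b and Tnfsf13.

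With the replicate number as a block (replicate block), 612 genes passed the adjusted p, Tnfrsf13b did not (log2 fold change -0.28, edgeR BH-adjusted p = 0.0557) and Tnfrsf13c did (-0.37, 0.00635). Of the pathway genes 9 passed it, and Psen2, Pim2, Pik3cd and Pik3ap1 did not (edgeR BH-adjusted p of 0.0843, 0.0524, 0.0621 and 0.0829). The sources used here give same-numbered samples no link other than the number, and do not say whether they were prepared together. The correlation of the deviations of same-numbered libraries was -0.0954 over 9875 genes. With so few libraries per genotype, deviations within a genotype mirror each other, so this single value cannot decide whether the samples were paired.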
